A study of Caenorhabditis elegans with 9 samples.

Results

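The comparison described here sets 3 RNA-seq libraries from graphene oxide (GO) animals against 3 from untreated control animals, across 12849 of the 46284 genes in the deposited table. GO is a sheet of carbon carrying oxygen groups. All 6 libraries come from whole wild-type Caenorhabditis elegans of strain N2. Animals were kept in liquid culture for 12 h, and each sample held 500 animals. The same table has 3 libraries from N2 animals given GO with added amino groups (GONH2), whose values are set beside the others where a gene is described. The dose, the stage of the worms and whether replicates grew apart were not found in the labels. The p-values therefore measure the spread between these samples, which may be technical.

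The members are genes with at least 1 FPKM (sequenced fragments per kilobase of gene, relative to all fragments mapped in that library) in at least 3 of the 9 libraries. They include 12242 protein-coding genes, and 25596 genes of the table were listed at 0 everywhere. The FPKM of a library summed to 955606 to 1010904, and 12299 to 12676 genes reached 1 FPKM. Read totals are not in the table, so the depth behind each value is unknown. Over the tested genes, GO libraries correlated with each other at 0.974 or more, control libraries at 0.976 or more, and GO with control libraries at 0.968 to 0.98 (Pearson's r of log2 values). Markers of intestine, muscle, pharynx, neurons, hypodermis, germline, sperm and coelomocytes were all detected. The 10 muscle markers summed to 5234 to 5287 FPKM in GO libraries and 5167 to 5330 FPKM in control libraries, and the 8 sperm markers to no more than 6.84 FPKM in any library. The 6 pharynx markers summed to 100.9, 116.2 and 113.5 FPKM in GO, 109.4, 112.2 and 116.7 FPKM in GONH2, and 132.2, 122.8 and 108.5 FPKM in control libraries. These sums overlapped, while 3 of the 6 pharynx genes had all GO libraries below all control libraries (50%, beside 3.12% of all genes tested). Their median log2 difference was −0.2662, with 1 of 6 above 0 (16.7%, beside 61.6% of all genes tested). None of the 6 pharynx genes passed the test of each gene used below, and their part in the results was not tested. In RNA from whole animals, fewer cells of a type and less RNA per cell cannot be told apart.

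Worms take in particles with their food, and the gut that receives them is a single layer of large polarised cells. This intestine digests bacteria with secreted and lysosomal hydrolases, stores fat, makes yolk and mounts an innate immune response. The immune response relies on lysozymes, C-type lectins, saposin-like peptides and CUB-like proteins, many of them under the p38 kinase PMK-1. The insulin-like pathway and its transcription factor DAF-16 set the level of some of the same genes.

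GO raised more genes than it lowered. In the moderated test of limma, 139 of 12849 genes were higher in GO (1.08%) and 23 lower (0.179%) at an adjusted p under 0.05. The median rise among the 139 genes was 0.625 and the median size of the 23 falls 0.567 on the log2(FPKM + 1) scale, and 65 rises and 12 falls were under 1.5-fold. At least 2-fold changes were seen in 28 rises (0.218% of genes) and 6 falls (0.0467%). An unadjusted p under 0.05 was reached by 994 genes (7.74%). GO and control libraries did not overlap in 1157 genes with higher values in GO (9% of those tested) and in 401 with lower values (3.12%). Over all genes tested the median difference was 0.0245, with 7911 of 12849 above 0, and it was −0.00192 after median-of-ratios scaling. GO replicate 2 weighed on the counts most: without it 92 genes were higher and 15 lower. In 18 refits under other settings or without single libraries, 87 of the 139 rises and 11 of the 23 falls were called every time. Of the called genes, F55H12.9, F25A2.1, ifas-2 and T26H5.10 reached 1 FPKM in GO libraries alone, and cel-mir-8199, asm-3 and clec-70 in control libraries alone. These 7 passed the filter only through the group where they were high and so had to differ, and their differences are a description. Of them F25A2.1, ifas-2 and T26H5.10 are named for this reason alone, outside the naming rule.

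**Figure D1:**
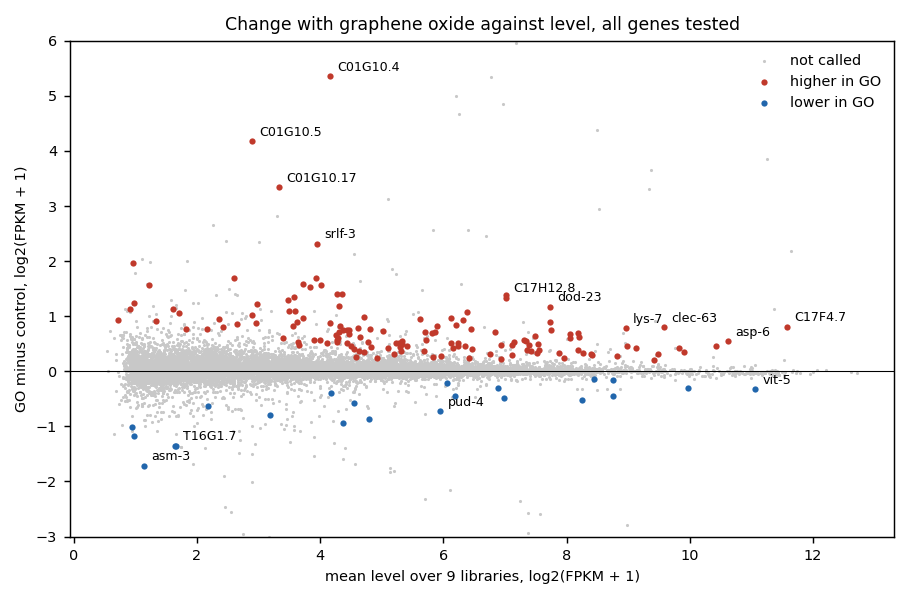
Difference between GO and control (vertical axis, log2(FPKM + 1)) against the mean level over 9 libraries (horizontal axis, log2(FPKM + 1)), with 1 point per tested gene and 7 genes beyond the vertical axis not drawn. Red points mark the 139 genes called higher and blue points those called lower, except cel-mir-8199, which lies beyond the axis, and the 3 neighbouring C01G10 genes stand above all other called genes.

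Calls were unevenly spread over levels and chromosomes. Among genes averaging 100 FPKM or more, 43 of 1622 were higher (2.65%), against 78 of 6226 between 10 and 100 FPKM (1.25%) and 18 of 5001 below 10 FPKM (0.36%). The share of tested genes called higher was 1.69% on chromosome IV, 1.66% on V, 1.17% on X and 1.11% on II, but 0.534% on III and 0.241% on I. Of the 139 rises, 69 carry only a sequence name, as do 5400 of all genes tested. Only 3 of the 23 falls carry no gene class symbol.

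The largest rises lay side by side on chromosome V, in a stretch of 2.0 kb (V:15089076-15091114 in WBcel235) that holds C01G10.5, C01G10.4 and C01G10.17 and no other coding gene. No role is given here for any of these genes. C01G10.4 had 45.9, 58.4 and 51.7 FPKM in GO libraries, 2.69, 5.06 and 4.13 FPKM in GONH2 libraries and 0.477, 0.431 and 0 FPKM in control libraries. It was near silent in control animals, and the 3 groups did not overlap. The log2 difference between GO and control was 5.36 ± 0.21 (SE, n = 3 libraries each, adjusted p = 1.69e-05), and that between GO and GONH2 was 3.44 (adjusted p = 0.00151). C01G10.5 had 25.9, 20.2 and 11.9 FPKM in GO, 4.67, 1.25 and 0.408 FPKM in GONH2, and 0.255, 0 and 0 FPKM in control libraries (4.17 ± 0.47, adjusted p = 0.00323). C01G10.17 had 24.9, 27.2 and 22.5 FPKM in GO, 4.23, 4.59 and 1.67 FPKM in GONH2, and 0.701, 3.47 and 1.17 FPKM in control libraries (3.34 ± 0.38, adjusted p = 0.00327). In both genes the GO libraries stood above all others, while GONH2 and control libraries overlapped for C01G10.17. For these 2 genes the difference between GO and GONH2 did not pass the threshold (adjusted p = 0.108 for C01G10.5 and 0.0669 for C01G10.17). All 3 rises were called in each of the 18 refits.

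Outside that stretch, srlf-3 rose most on the log2(FPKM + 1) scale. It had 27.9, 30.6 and 34.2 FPKM in GO, 12.1, 13.4 and 10.6 FPKM in GONH2, and 4.8, 6.51 and 4.95 FPKM in control libraries. The groups were fully separate, with GO highest (2.32 ± 0.13, adjusted p = 6.61e-05; GO against GONH2 1.30, adjusted p = 0.00852). Of 12 tested genes of the srlf class, srlf-3 and srlf-35 rose and none fell (16.7% called, beside 1.26% of all genes tested). The abundant member srlf-1 had 919, 958 and 972 FPKM in GO and 955, 1014 and 966 FPKM in control libraries (−0.04, adjusted p = 0.914). B0024.4 had 9.39, 9.49 and 10.8 FPKM in GO, 4.83, 3.82 and 4.8 FPKM in GONH2, and 1.79, 1.75 and 3.91 FPKM in control libraries (1.70 ± 0.22, adjusted p = 0.00577). F49F1.5 had 22.2, 21 and 24 FPKM in GO, 15.1, 11.4 and 16.5 FPKM in GONH2, and 7.05, 8.68 and 5.91 FPKM in control libraries (1.52 ± 0.15, adjusted p = 0.00177). Both were called in every refit. The next-door gene F49F1.7, named outside the rule after its values were seen, differed by 0.66 (adjusted p = 0.0459), and it kept its call in only 6 of 18 refits.

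Y47H9C.1, at low levels throughout, had 3.69, 3.41 and 2.35 FPKM in GO, 1.03, 0.67 and 0.836 FPKM in GONH2, and 0.603, 0.222 and 0.372 FPKM in control libraries (1.56 ± 0.17, adjusted p = 0.00265). C50F7.5 had 27.1, 23.9 and 30.1 FPKM in GO, 8.11, 12.0 and 15.8 FPKM in GONH2, and 8.65, 4.41 and 11.5 FPKM in control libraries (1.69 ± 0.31, adjusted p = 0.0434). Its GO libraries stood above all 6 others, but the call was lost without any GO replicate, without GONH2 replicate 2 and without control replicates 1 or 2 (adjusted p = 0.0522 to 0.149). Among the 12 largest rises were also 2 noncoding RNAs, Y39G10AR.30 and the small nucleolar RNA gene F55H12.9. Y39G10AR.30 had 27.5, 33.0 and 31.1 FPKM in GO, 25.3, 18.5 and 24.5 FPKM in GONH2, and 7.84, 12.5 and 13.0 FPKM in control libraries (1.40 ± 0.19, adjusted p = 0.00733). F55H12.9 was listed at 5.32, 2.28 and 1.89 FPKM in GO and at 0 in all 6 other libraries, so no fold is given for it.

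**Figure D2:**
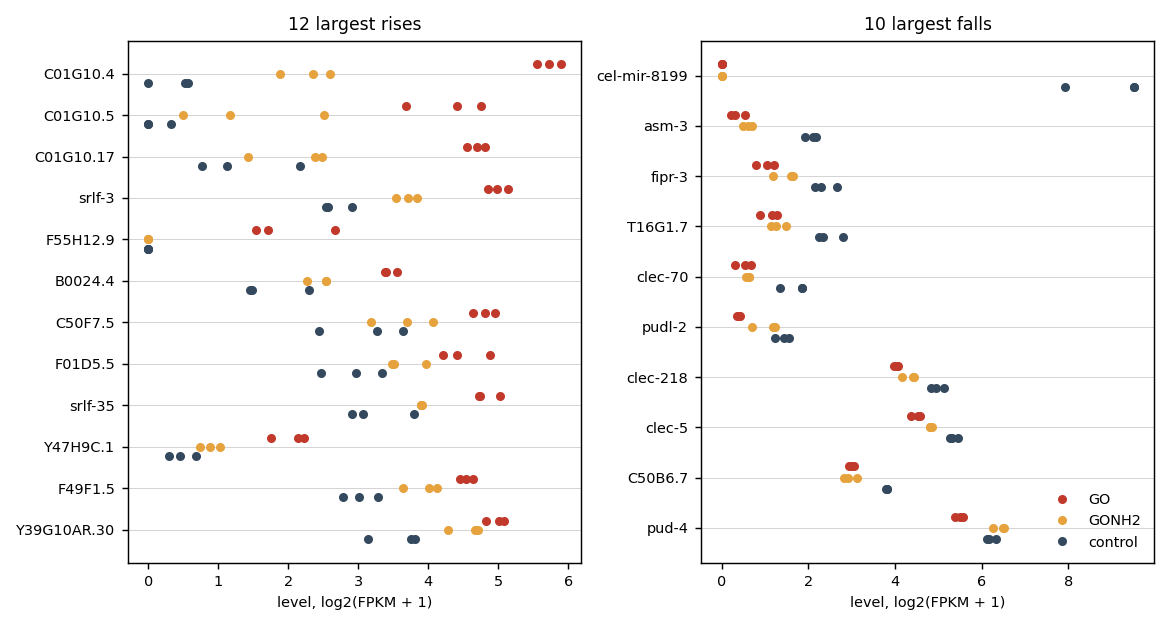
Level of each gene in each library (log2(FPKM + 1)) for the 12 largest rises (left) and the 10 largest falls (right) between GO and control, with GO in red, GONH2 in orange and control in dark blue, 3 points each. In the left panel every red point of a gene lies to the right of its dark blue points, by a log2 difference of 1.40 (Y39G10AR.30) to 5.36 (C01G10.4), and in the right panel to the left of them.

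Neighbouring rises were not limited to the C01G10 genes. Of the 139 genes higher in GO, 31 (22.3%) lay within 10 kb of another gene called higher, while 455 of 12818 tested genes with a position (3.55%) lay that close to one. Such groups were the C-type lectin genes clec-62, clec-63 and clec-65 on chromosome II, and Y54G2A.7 with clec-84 and clec-85 on IV. Pairs included cdr-4 with cdr-2, asp-6 with asp-12, spp-3 with spp-2 and nspg-14 with nspg-13. How the authors divided reads between near-identical neighbours is not stated in the labels, so values of close paralogs are uncertain.

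Among secreted immune effectors, C-type lectins gave the most calls. These proteins carry a carbohydrate-binding fold, and many are induced by infection. Of 78 tested C-type lectin genes 13 rose and 3 fell (20.5% called, beside 1.26% of all genes tested). Their median difference was 0.121 beside 0.0245 for all genes. clec-62 had 70.0, 72.2 and 68.0 FPKM in GO, 55.02, 55.1 and 52.4 FPKM in GONH2, and 36.1, 34.1 and 37.0 FPKM in control libraries. The libraries of each group lay close together and GONH2 fell in the gap between GO and control. The log2 difference was 0.95 ± 0.042 against control (adjusted p = 2.08e-05) and 0.36 against GONH2 (adjusted p = 0.0172). clec-85 had 124, 128 and 121 FPKM in GO, 91.9, 92.8 and 86.8 FPKM in GONH2, and 59.4, 54.9 and 61.6 FPKM in control libraries. Its 3 groups were again separate (1.07 ± 0.048, adjusted p = 2.08e-05; GO against GONH2 0.46, adjusted p = 0.0107). Its neighbour clec-84 differed by 0.26 (adjusted p = 0.0087), and clec-82 and clec-83 in the same 16.8 kb were not called.

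The 3 C-type lectin genes that fell lie apart from each other, on chromosomes III, IV and V. clec-5 had 19.6, 22.8 and 22.1 FPKM in GO, 27.8, 26.9 and 26.9 FPKM in GONH2, and 37.5, 39.0 and 42.9 FPKM in control libraries (−0.86 ± 0.069, adjusted p = 4.80e-04). clec-218 had 14.7, 15.9 and 15.5 FPKM in GO, 20.2, 16.9 and 20.7 FPKM in GONH2, and 30.0, 34.0 and 27.6 FPKM in control libraries (−0.94 ± 0.095, adjusted p = 0.00177). In both genes all GO libraries lay under all GONH2 libraries, and those under all control libraries. clec-70 had 0.588, 0.445 and 0.246 FPKM in GO, 0.56, 0.47 and 0.548 FPKM in GONH2, and 2.59, 1.53 and 2.64 FPKM in control libraries (−1.18 ± 0.17, adjusted p = 0.0113). GO and GONH2 overlapped there, and the call was lost without GO replicates 2 or 3 or control replicate 1 (adjusted p = 0.0522 to 0.0566).

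Lysozymes, enzymes that digest bacterial cell walls, gave 3 rises among 10 tested genes and no fall (median 0.2655). Their called share was 30%, beside 1.26% of all genes tested. lys-7 had 686, 678 and 701 FPKM in GO, 573, 566 and 562 FPKM in GONH2, and 398, 396 and 407 FPKM in control libraries. It had the smallest p-value of all genes tested (0.78 ± 0.025, adjusted p = 5.33e-06), and GO also stood above GONH2 (0.28, adjusted p = 0.00725). lys-4 differed by 0.25 (adjusted p = 0.00418). lys-8 differed by 0.31 (adjusted p = 0.0106), a call lost without GO replicate 2 or control replicate 1 (adjusted p = 0.0622 and 0.0502). The abundant lys-1 had 446, 507 and 539 FPKM in GO and 345, 400.5 and 423 FPKM in control libraries, and was not called (0.35 ± 0.09, adjusted p = 0.182).

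CUB-like proteins and other infection-induced secreted proteins formed a list of 26 tested genes, of which 6 rose and none fell (median 0.3055). The called share was 23.1%, beside 1.26% of all genes tested. C17H12.8 had 209, 205 and 189 FPKM in GO, 166, 136 and 138 FPKM in GONH2, and 72.6, 70.8 and 96.1 FPKM in control libraries. The groups were separate (1.33 ± 0.12, adjusted p = 9.90e-04). F55G11.4 differed by 0.75 (adjusted p = 7.27e-04) and F55G11.8 by 0.57 (adjusted p = 0.0133), the second of them not called without any of the 3 GO replicates in turn (adjusted p = 0.0569 to 0.0636). F01D5.5 had 17.6, 20.3 and 28.4 FPKM in GO, 10.4, 14.6 and 10.1 FPKM in GONH2, and 4.52, 9.07 and 6.84 FPKM in control libraries (1.58 ± 0.25, adjusted p = 0.0186). Its call was lost without GO replicates 2 or 3 or control replicate 3 (adjusted p = 0.0625 to 0.076). Of 10 tested genes known as dependent on PMK-1 after infection, 3 rose (30%), namely C17H12.8, dod-24 and clec-85. dod-24 differed by 0.45 (adjusted p = 0.0346), and its call was lost without any GO replicate, GONH2 replicate 2 or control replicate 3 (adjusted p = 0.0677 to 0.145). The 19 tested kinases, adaptors and regulators of the p38 pathway itself gave no call, where 1.26% of all genes tested were called. Of them 15 were above 0 (78.9%, beside 61.6% of all genes), with a median of 0.0837. GO libraries lay above all control libraries in 4 and below them in 1 (21.1% and 5.26%, beside 9% and 3.12% of all genes). The 17 genes of the intracellular pathogen response gave no call either (median 0.0431, and −0.0038 to 0.2578 over the other settings). Among these 17, GO libraries lay above all control libraries in 4 and below them in none (23.5% and 0%). Lists of this size would hold few or no calls at the share of all genes. Outside the naming rule, irg-7, an infection response gene, had 84.4, 90.2 and 92.2 FPKM in GO and 60.0, 62.7 and 64.3 FPKM in control libraries (0.51 ± 0.044, adjusted p = 8.07e-04). It was chosen after its values were seen.

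Antimicrobial peptides and saposins were divided. Of 60 tested genes, spp-2, spp-3, spp-18 and abf-5 rose and fipr-3 and spp-14 fell (10% called, beside 1.26% of all genes tested). The median was −0.0035 (−0.1232 to 0.0308 over the other settings). spp-2, a saposin-like peptide gene, had 305, 307 and 289.6 FPKM in GO, 252, 248 and 231 FPKM in GONH2, and 163, 140.1 and 183 FPKM in control libraries (0.90 ± 0.085, adjusted p = 0.0013). spp-14 had 926, 1054 and 1046 FPKM in GO, 1115, 1061 and 1068 FPKM in GONH2, and 1241, 1263 and 1228 FPKM in control libraries (−0.30 ± 0.05, adjusted p = 0.0216). These members of the same family thus stood on opposite sides of their controls. The spp-14 call did not hold with any single control replicate left out (adjusted p = 0.0723 to 0.0858), and the spp-18 call without any GO replicate or without control replicates 1 or 3 (adjusted p = 0.0749 to 0.0928). fipr-3, related to fungus-induced proteins, had 0.738, 1.05 and 1.31 FPKM in GO and 3.93, 5.33 and 3.47 FPKM in control libraries (−1.36 ± 0.19, adjusted p = 0.00899).

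Genes on a list of those lowered by DAF-16 were mostly higher in GO. Of 10 tested, dod-23, dod-19, dct-17, ges-1, ins-7 and dod-24 rose and vit-5 fell (70% called, median 0.4224). The dod-24 call held in 8 of 18 refits and that of ges-1 in 13. dod-19 had 188, 212 and 216 FPKM in GO, 152, 146 and 137 FPKM in GONH2, and 64.3, 94.0 and 77.8 FPKM in control libraries. All 3 groups were separate, and the difference between GO and control was 1.39 ± 0.12 (adjusted p = 8.09e-04). dod-23 had 315, 354 and 365 FPKM in GO, 199.6, 221 and 196 FPKM in GONH2, and 142, 153 and 162 FPKM in control libraries (1.17 ± 0.072, adjusted p = 9.55e-05; GO against GONH2 0.74, adjusted p = 0.00852). None of the 20 tested genes on the list of those raised by DAF-16 was called, where 1.26% of all genes tested were. Their median was −0.0277 (−0.0786 to 0.1692 over the other settings), with 9 above 0 (45%, beside 61.6% of all genes). This list was written with earlier results of these data known, and lys-7 and lys-8, both called higher, are not on it. It therefore cannot speak for all genes that DAF-16 raises. The insulin-like peptide gene ins-7 had 28.7, 23.7 and 22.3 FPKM in GO, 16.2, 15.98 and 21.98 FPKM in GONH2, and 12.3, 14.6 and 12.2 FPKM in control libraries (0.88 ± 0.14, adjusted p = 0.019). It was the only call among 32 insulin pathway genes (3.12%, beside 1.26% of all genes tested). The ins-7 call was lost without GO replicates 1 or 2 or control replicates 1 or 3 (adjusted p = 0.0696 to 0.0847).

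Some families of digestive proteases also held several rises. Of 11 tested aspartic protease genes, which encode cathepsin D- and pepsin-like enzymes, asp-1, asp-3, asp-6, asp-12 and asp-17 rose and none fell. The called share was 45.5%, beside 1.26% of all genes tested. asp-6 had 2052, 2081 and 1959.8 FPKM in GO, 1969, 1838 and 1729 FPKM in GONH2, and 1439.8, 1312 and 1413 FPKM in control libraries (0.55 ± 0.055, adjusted p = 0.00177). asp-1, a protease of the gut, had 1699.9, 1700.3 and 1711 FPKM in GO, 1657, 1651 and 1574 FPKM in GONH2, and 1215, 1211 and 1277 FPKM in control libraries (0.47 ± 0.033, adjusted p = 2.50e-04). GO and GONH2 both lay above control in these genes, and the difference between GO and GONH2 was 0.14 for asp-6 and 0.07 for asp-1. The asp-12 call was lost without any GO replicate or without control replicate 1 (adjusted p = 0.0531 to 0.0902). The abundant asp-2 was not called (0.19 ± 0.039, adjusted p = 0.0693). asp-5 was listed at 0 in GO replicate 1 but at 720 and 705 FPKM in the other GO libraries, and at 562, 514 and 575 FPKM in control libraries. With that zero kept, its difference was −2.79 (adjusted p = 0.886), and without GO replicate 1 it was 0.374 (adjusted p = 0.0196).

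Serine carboxypeptidases, which trim proteins from their C-terminal end, gave 3 rises and 1 fall among 11 tested genes. Their called share was 36.4%, beside 1.26% of all genes tested. ctsa-1.2, a cathepsin A relative, had 372, 403 and 397 FPKM in GO, 343, 339 and 326 FPKM in GONH2, and 254, 249 and 256 FPKM in control libraries (0.63 ± 0.036, adjusted p = 6.88e-05). Its paralog ctsa-1.1 had 310, 336 and 328 FPKM in GO and 312, 335 and 314 FPKM in control libraries (0.02, adjusted p = 0.979). GO and control libraries were separate for ctsa-1.2 and overlapped for ctsa-1.1, and the difference between these 2 genes was not tested. ctsa-4.2 differed by 0.83 (adjusted p = 0.00115) and ctsa-4.1 by 0.61 (adjusted p = 0.0168), while pcp-1 differed by −0.39 (adjusted p = 0.0153). The ctsa-4.1 call was lost without any GO replicate or control replicates 1 or 3, and the pcp-1 call without GO replicates 1 or 2 or control replicates 1 or 2 (adjusted p = 0.0519 to 0.093 in all). Among 10 tested cysteine proteases, cpr-9 differed by 0.42 (adjusted p = 0.00424) and the cathepsin Z gene cpz-1 by −0.16 (adjusted p = 0.0202). The abundant members cpl-1 (0.06, adjusted p = 0.794) and cpr-6 (0.01, adjusted p = 0.995) were not called. The cpz-1 call was lost without any GO replicate or control replicates 2 or 3 (adjusted p = 0.0603 to 0.0868). K12H4.7, a gene resembling the serine carboxypeptidases, was named after its values were seen. It had 382, 399 and 388 FPKM in GO, 344, 329.5 and 321 FPKM in GONH2, and 231, 244 and 248 FPKM in control libraries (0.69 ± 0.037, adjusted p = 6.61e-05).

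Lysosomal enzymes and membrane proteins moved both ways. Of 41 tested, gba-1, gba-4, asah-2 and lipl-5 rose, and asm-3, nuc-1 and lipl-3 fell (17.1% called). Of these, lipl-5, nuc-1 and lipl-3 lie outside the naming rule and were named after their values were seen. Sphingolipid enzymes stood among both the rises and the falls. The glucocerebrosidase gene gba-4 had 44.97, 39.8 and 40.9 FPKM in GO, 42.3, 35.8 and 33.8 FPKM in GONH2, and 23.1, 27.8 and 23.8 FPKM in control libraries (0.73 ± 0.098, adjusted p = 0.00772). gba-1 differed by 0.53 (adjusted p = 0.00151) and asah-2, of the acid ceramidases, by 0.37 (adjusted p = 0.00776). The acid sphingomyelinase gene asm-3 had 0.162, 0.446 and 0.241 FPKM in GO, 0.619, 0.524 and 0.407 FPKM in GONH2, and 3.3, 2.77 and 3.56 FPKM in control libraries. It was low everywhere and lower in all 6 libraries with a nanomaterial than in any control library (−1.72 ± 0.13, adjusted p = 4.60e-04). As said above, asm-3 reached 1 FPKM in control libraries alone, so its fall is a description. Lysosomal lipases also moved both ways, with 0.28 for lipl-5 (adjusted p = 0.00902) and −0.63 for lipl-3 (adjusted p = 0.0216). nuc-1, the lysosomal DNase II, differed by −0.21 (adjusted p = 0.0168). The lipl-3 and nuc-1 falls were called in 9 and 12 of 18 refits. None of the 21 tested subunits of the V-ATPase, the proton pump that acidifies lysosomes, was called, where 1.26% of all genes tested were. Their median was 0.0456. GO libraries lay above all control libraries in 4 subunits and below them in none (19% and 0%, beside 9% and 3.12% of all genes). Of 14 acid phosphatases, pho-14 rose and pho-11 and acp-6 fell (21.4% called). The pho-11 call was lost without GO replicates 1 or 3 or control replicates 1 or 3 (adjusted p = 0.0567 to 0.0713), and the acp-6 call without any single library other than GO replicate 2 (adjusted p = 0.0753 to 0.181).

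Nematode-specific peptides of group G gave the largest called share of any class with at least 3 rises. Of 10 tested nspg genes 6 rose: nspg-6, nspg-7.1, nspg-9, nspg-10, nspg-13 and nspg-14 (median of the 10 genes 0.4229). That share was 60%, beside 1.26% of all genes tested. nspg-14 had 206, 204 and 212 FPKM in GO, 184, 196 and 182 FPKM in GONH2, and 134, 141 and 147 FPKM in control libraries (0.56 ± 0.042, adjusted p = 4.13e-04). nspg-7.1 had 349, 366 and 349 FPKM in GO, 309, 289.5 and 297 FPKM in GONH2, and 209, 261 and 229 FPKM in control libraries (0.61 ± 0.071, adjusted p = 0.0036). In both genes GO libraries lay above all GONH2 libraries, and those above all control libraries. The gene with the highest level among the rises was C17F4.7, chosen after its values were seen. It had 4266, 4266 and 4022 FPKM in GO, 3959.8, 3615 and 3393 FPKM in GONH2, and 2266, 2482 and 2404 FPKM in control libraries (0.81 ± 0.061, adjusted p = 4.13e-04).

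**Figure D3:**
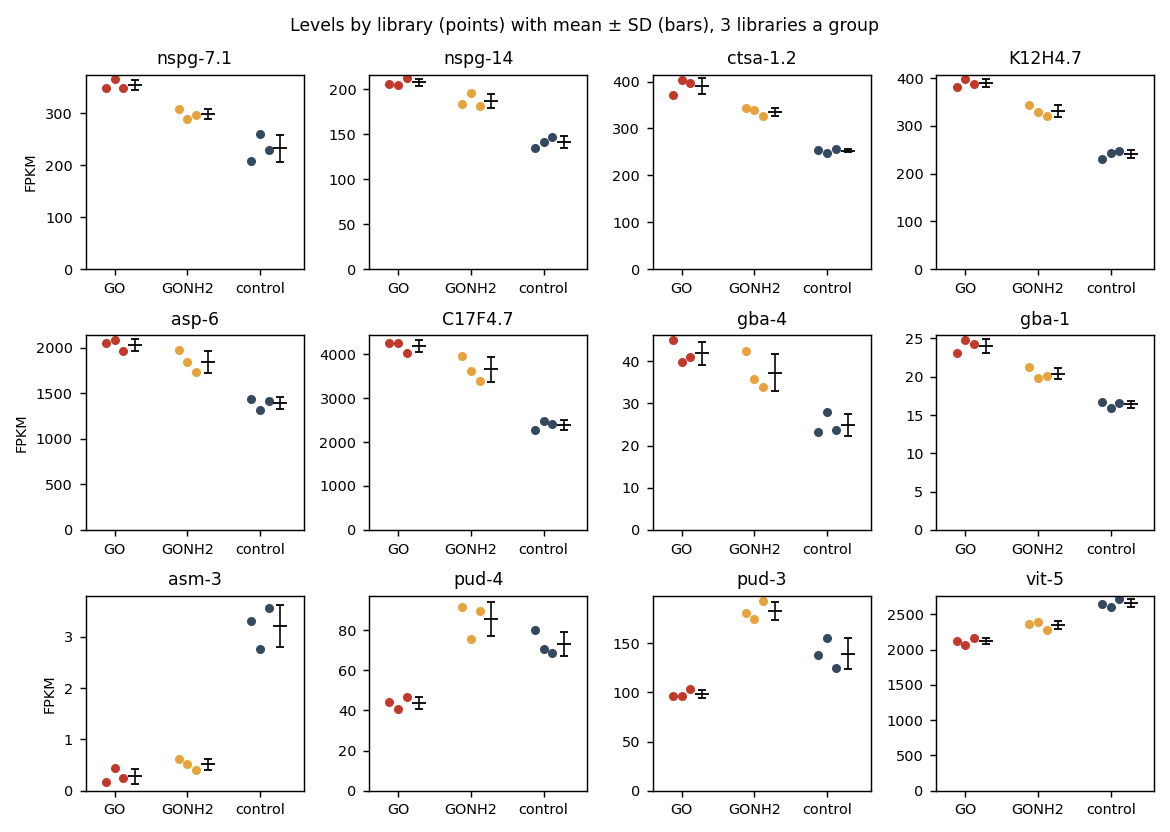
FPKM of 12 genes in each library (points) with mean ± SD (bars, n = 3), in GO (red), GONH2 (orange) and control (dark blue), on axes that start at 0. The top 8 genes, such as C17F4.7 at 4022 to 4266 FPKM in GO and 2266 to 2482 FPKM in control, were higher in GO, and asm-3, pud-4, pud-3 and vit-5 were lower.

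The falls were led by cel-mir-8199, asm-3, fipr-3, T16G1.7 and clec-70. cel-mir-8199 was listed at 0 in all GO and GONH2 libraries and at 728, 731 and 242 FPKM in control libraries. It belongs to 157 genes in which libraries listed at 0 stand beside levels of at least 10 FPKM, so those zeros may be failed estimates and no fold is given. T16G1.7 had 1.24, 1.41 and 0.839 FPKM in GO, 1.41, 1.22 and 1.78 FPKM in GONH2, and 5.97, 4.03 and 3.72 FPKM in control libraries (−1.35 ± 0.18, adjusted p = 0.00776). C50B6.7, which encodes an alpha-amylase, a starch-digesting enzyme, had 6.74, 7.08 and 7.26 FPKM in GO, 7.77, 6.6 and 6.05 FPKM in GONH2, and 12.9, 13.1 and 13.0 FPKM in control libraries (−0.80 ± 0.089, adjusted p = 0.00298). In both genes GO and GONH2 overlapped each other and stood apart from control.

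The pud and pudl genes are named for proteins raised in mutants of the insulin receptor. Of 6 tested, pud-1.2, pud-3, pud-4 and pudl-2 fell (median −0.6248), and the first 3 lie within 5.2 kb on chromosome V. The called share was 66.7%, beside 1.26% of all genes tested. pud-4 had 44.3, 40.7 and 46.6 FPKM in GO, 91.4, 75.6 and 89.7 FPKM in GONH2, and 80.0, 70.7 and 68.5 FPKM in control libraries. GO libraries were the lowest, while GONH2 and control overlapped (−0.72 ± 0.088 against control, adjusted p = 0.00454; −0.95 against GONH2, adjusted p = 0.00798). pud-3 had 96.0, 96.7 and 103 FPKM in GO, 181, 175 and 193 FPKM in GONH2, and 138, 155 and 124 FPKM in control libraries. Here GONH2 stood above control and GO below it (−0.49 ± 0.075 against control, adjusted p = 0.0167; −0.88 against GONH2, adjusted p = 0.00725). pud-1.2 had 264, 284 and 258 FPKM in GO, 379, 348 and 351 FPKM in GONH2, and 416, 395 and 353 FPKM in control libraries (−0.53 ± 0.065, adjusted p = 0.00475). pud-1.2 has a near-identical copy, pud-1.1, so its value is uncertain. The pud-3 call was lost without GO replicates 1 or 2 or control replicate 1, and the pudl-2 call without any GO replicate or control replicates 2 or 3 (adjusted p = 0.0678 to 0.111 in all).

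Yolk protein genes, which the intestine expresses for the oocytes, gave 2 falls among 5 tested (40%). vit-5 had 2125, 2069.6 and 2167 FPKM in GO, 2359, 2389 and 2282 FPKM in GONH2, and 2649, 2605 and 2721 FPKM in control libraries. The groups were separate, with GO lowest (−0.33 ± 0.034, adjusted p = 0.00197). vit-3 had 391, 397 and 417 FPKM in GO and 525, 582 and 545 FPKM in control libraries (−0.45 ± 0.073, adjusted p = 0.0207), a call lost without any GO replicate or control replicates 2 or 3 (adjusted p = 0.0533 to 0.1). vit-6, the most abundant, had 4694, 4718 and 4876 FPKM in GO and 4623, 4686 and 4780 FPKM in control libraries (0.02, adjusted p = 0.978). In fat metabolism, fat-2, a fatty acid desaturase, was the only call among 17 genes of fatty acid synthesis and desaturation (0.21, adjusted p = 0.0216). It held in 8 of 18 refits. None was called among 53 genes of fatty acid activation and oxidation or 16 of fatty acid binding. In these 2 lists in turn, GO libraries lay above all control libraries in 11.3% and 25% and below them in 1.89% and 6.25%. Over all genes the shares were 9% above and 3.12% below. With 1.26% of all genes tested called, lists of this size would hold few calls in any case.

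Several rises concern genes that work in the gut. The 9 intestine markers summed to 3292, 3372 and 3361 FPKM in GO, 3335, 3289 and 3151 FPKM in GONH2, and 2839, 2882 and 2896 FPKM in control libraries. Without asp-1 the other 8 summed to 1592, 1672 and 1650 FPKM in GO, 1678, 1638 and 1577 FPKM in GONH2, and 1624, 1671 and 1619 FPKM in control libraries. With asp-1 left out the groups overlapped, and among these 8 markers the gut esterase gene ges-1 was the only call (0.40 ± 0.062, adjusted p = 0.0177), held in 13 of 18 refits and named outside the rule. cpr-6 made up most of the sum without asp-1, with 1069.4 to 1132 FPKM in GO and 1076.6 to 1089.5 FPKM in control libraries. The uncalled markers differed by 0.22 (vha-6), 0.21 (elt-2), 0.09 (elt-7), 0.01 (cpr-6), −0.03 (act-5), −0.10 (the intermediate filament gene ifb-2) and −0.33 (the metallothionein gene mtl-2). Of all 9 markers 6 were above 0 (66.7%, beside 61.6% of all genes). GO libraries lay above all control libraries in 3 and below them in 1 (33.3% and 11.1%, beside 9% and 3.12% of all genes). The part of gut marker levels in the results above was not tested. nlp-40, an intestinal peptide gene that drives the defecation programme, was the only call among 97 neuropeptide genes, where 1.26% of all genes tested were called. It had 226, 206 and 230.5 FPKM in GO and 168, 179.8 and 180.3 FPKM in control libraries (0.32 ± 0.047, adjusted p = 0.0111), a call lost without GO replicate 1 (adjusted p = 0.0537).

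Stress and detoxification genes were mostly not called. None of 31 antioxidant enzymes, 38 glutathione S-transferases, 45 cytochrome P450 genes, 14 cytosolic heat shock genes, 12 genes of the mitochondrial and 21 of the endoplasmic reticulum unfolded protein response or 10 hypoxia pathway genes passed, where 1.26% of all genes tested did. Differences were above 0 in 41.9%, 73.7%, 60%, 28.6%, 66.7%, 95.2% and 80% of these lists in turn, beside 61.6% of all genes. In the endoplasmic reticulum list 20 of 21 were above 0, with a median of 0.0652 (0.0373 to 0.0885 over the other settings). GO libraries lay above all control libraries in 2 of its genes (9.52%, beside 9% of all genes). The reporter genes were chosen after values were known. gst-4, a glutathione S-transferase that reports activity of the factor SKN-1, had 40.8, 58.6 and 65.0 FPKM in GO and 41.0, 67.4 and 42.4 FPKM in control libraries. Its groups overlapped, and the 95% interval of its log2 difference ran between −0.35 and 0.62 (adjusted p = 0.97). hsp-6, the mitochondrial chaperone, had 294, 309 and 301 FPKM in GO and 296, 302 and 298 FPKM in control libraries, with an interval of −0.05 to 0.07. hsp-4, the chaperone BiP, had an interval of −0.11 to 0.17. Each interval gives the differences that 3 libraries a group leave possible for that gene, and is not a limit of detection. A gene without a call is therefore not shown to be unchanged.

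Metal and xenobiotic genes gave single calls. The cadmium-responsive genes cdr-2 and cdr-4 were the 2 calls among 34 metal-handling genes (5.88%, beside 1.26% of all genes tested). cdr-2 had 30.6, 30.2 and 26.6 FPKM in GO, 26.1, 17.2 and 19.95 FPKM in GONH2, and 13.1, 13.4 and 10.5 FPKM in control libraries (1.18 ± 0.15, adjusted p = 0.00569). cdr-4 differed by 0.76 (adjusted p = 0.00632). The metallothionein gene mtl-2 had 74.7, 66.7 and 65.6 FPKM in GO and 89.1, 90.1 and 81.4 FPKM in control libraries and just missed the threshold (−0.33 ± 0.067, adjusted p = 0.0693). ugt-62 was the only call among 48 UDP-glucuronosyltransferases (2.08%, near the 1.26% of all genes tested). It had 72.6, 69.3 and 67.9 FPKM in GO, 63.1, 58.1 and 52.8 FPKM in GONH2, and 36.6, 48.0 and 42.9 FPKM in control libraries (0.71 ± 0.097, adjusted p = 0.00833).

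Of 42 lists, 19 had no call and 7 had calls in both directions. Housekeeping lists had small medians: −0.024 for 82 cytosolic ribosomal protein genes, −0.0181 for 33 proteasome genes and 0.009 for 41 respiratory chain genes, with no call in any. Differences were above 0 in 18.3%, 27.3% and 68.3% of these lists in turn, beside 61.6% of all genes. GO libraries lay below all control libraries in 7.32%, 12.1% and 7.32% (3.12% of all genes). They lay above them in 1.22%, 0% and 7.32% (9% of all genes). Over the other settings the ribosomal median ran between −0.0522 and 0.006 and the respiratory median between −0.0189 and 0.0164, so neither has a settled sign. After median-of-ratios scaling the ribosomal median was −0.0522, beside −0.00192 for all genes. The 76 cuticle collagen genes, whose products form the worm's outer coat, also gave no call. Their median was −0.1082 (−0.168 to −0.0741 over the other settings), and 16 of 76 differences were above 0. GO libraries lay below all control libraries in 8 collagen genes and above them in 1 (10.5% and 1.32%, beside 3.12% and 9% of all genes). The 164 nuclear hormone receptor genes, a large family of transcription factors, gave no call, with a median of 0.0725 and 120 differences above 0 (73.2%, beside 61.6% of all genes). Their GO libraries lay above all control libraries in 26 genes and below them in 1 (15.9% and 0.61%, beside 9% and 3.12% of all genes).

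**Figure D4:**
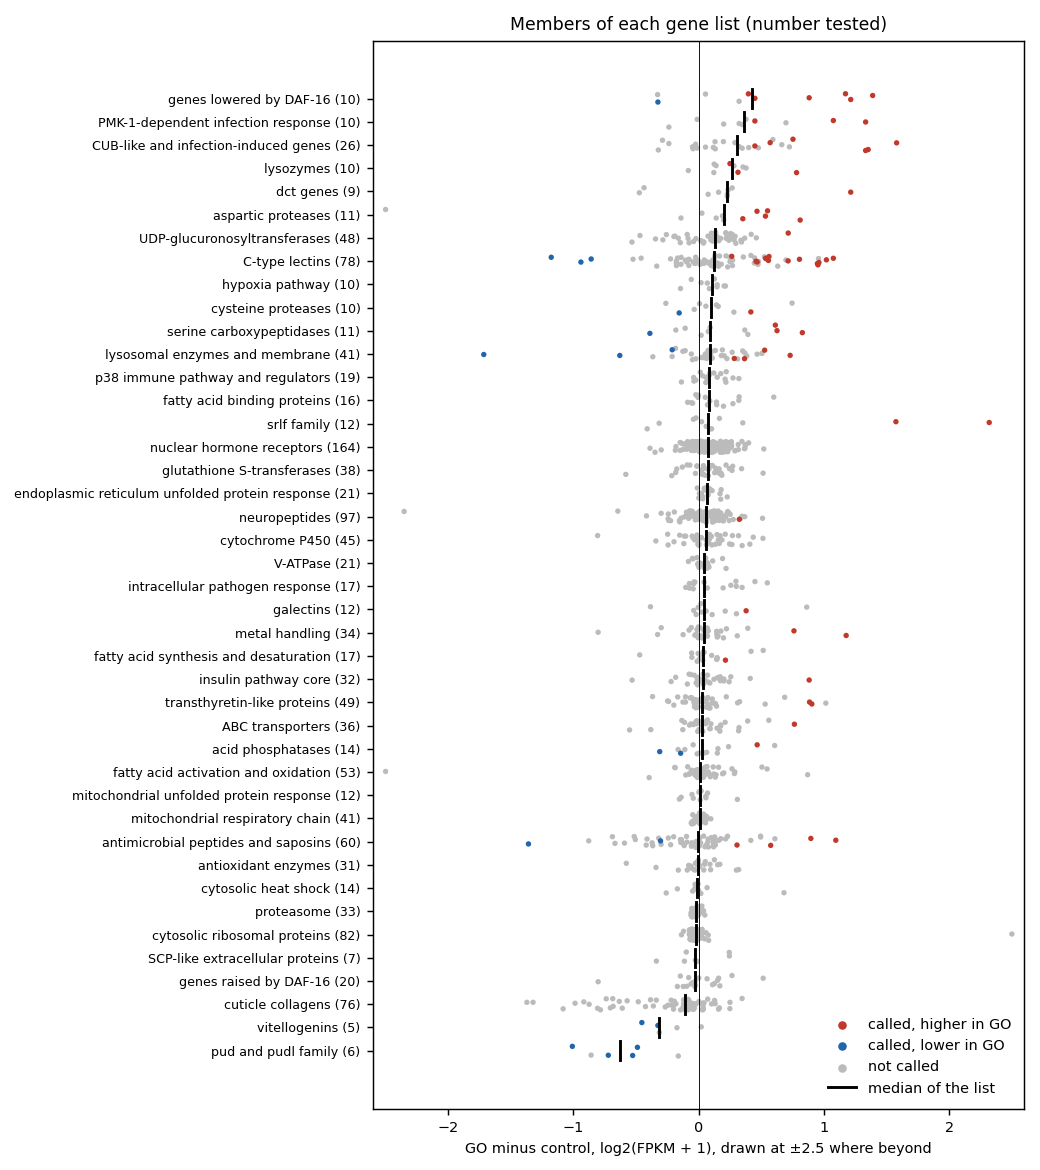
Difference between GO and control (horizontal axis, log2(FPKM + 1)) for each tested member of 42 gene lists, ordered by the list's median (black bar), with values past ±2.5 drawn at ±2.5 and the number of tested members after each name. Red points are called higher and blue points called lower, and lists at the top and bottom, such as 10 genes lowered by DAF-16 (median 0.4224) and 6 pud and pudl genes (median −0.6248), hold several calls.

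Noncoding RNA had higher sums in the GO libraries than in the control libraries. The 138 tested genes annotated as ncRNA summed to 23390, 32880 and 24810 FPKM in GO, 27980, 12820 and 15870 FPKM in GONH2, and 15840, 14950 and 10220 FPKM in control libraries. GO sums lay above all control sums, and GONH2 overlapped both. The most abundant of these genes, C18H9.12, had 2275, 11234 and 2839.9 FPKM in GO, 6333, 2747 and 3779 FPKM in GONH2, and 1305, 979 and 600.2 FPKM in control libraries (2.19, adjusted p = 0.229). It was chosen after its values were seen. Of the 138 genes, 1 was called. The 12242 tested protein-coding genes summed to 932900, 966400 and 962500 FPKM in GO and 938400, 946800 and 942800 FPKM in control libraries. The part of these sums in the results above was not tested. When libraries were rescaled by the median of ratios, 125 genes were higher and 26 lower.

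GO and GONH2 libraries differed in 17 of 12849 genes (0.132%), in a comparison that shares its GO libraries with the one against control. They include the differences given above for C01G10.4, srlf-3, dod-23, lys-7, clec-62, clec-85, pud-3 and pud-4. clec-65 had 155, 159 and 154 FPKM in GO, 129, 123 and 123 FPKM in GONH2, and 89.4, 97.1 and 97.8 FPKM in control libraries (0.32 against GONH2, adjusted p = 0.0316). F55H12.9, described above, differed by 1.97 from GONH2 (adjusted p = 0.0397). Outside the naming rule, GO also stood above GONH2 for F32A5.4 (0.45, adjusted p = 0.00725), C14C6.5 (0.40, adjusted p = 0.0107), C14C6.2 (0.35, adjusted p = 0.0427) and pqn-31 (0.64, adjusted p = 0.0397), all of them also higher in GO than in control. GO stood below GONH2 for scl-24 (−1.15, adjusted p = 0.0107), Y69H2.3 (−0.39, adjusted p = 0.0107) and Y46E12A.5 (−1.15, adjusted p = 0.00886), which were not called against control. These 7 genes were chosen with their values in view. Of the genes in this comparison, scl-24 and Y46E12A.5 reached 1 FPKM in GONH2 libraries alone and F55H12.9 in GO libraries alone. They passed the filter only through the group where they were high and so had to differ, and their differences are a description. For asm-3 the difference between GO and GONH2 was −0.25 ± 0.13, for asp-1 0.07 ± 0.033, for asp-6 0.14 ± 0.055 and for cdr-2 0.46 ± 0.15. None of these 4 passed (adjusted p of 0.802 or more), which does not show that the materials act alike.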

How the data were processed

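Whole-animal total RNA was sequenced paired-end from stranded libraries, per the labels' protocols. The authors deposited FPKM per gene; for the aligner, genome build and annotation the labels name nothing. Per the submitters' processing notes DESeq2 was among the tools; its role is unknown, and it was not run. FPKM are no read counts, so depth is unknown and no count test was used. Symbols and positions came from Ensembl release 115 (WBcel235), with 43325 of 46284 IDs matched. The authors' build may differ.

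Values became log2(FPKM + 1), which understates changes of low genes. The genes at 1 FPKM or more in 3 or more libraries were fitted over all 9 libraries with group as the only term (limma 3.58.1, R 4.3.3, trended empirical Bayes; prior degrees of freedom 2.47, residual 6), with Benjamini-Hochberg adjustment over 12849 genes and a threshold of 0.05. Errors are the standard errors of that fit, and the median 95% interval reached 0.217 to each side. On simulated data for GO versus control over 12849 genes, 37.2%, 58%, 82% and 97.2% of planted 1.25-, 1.5-, 2- and 4-fold changes were recovered. Zeros beside a median of at least 10 FPKM in the other libraries occurred in 157 genes (74 tested) and were kept.

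The comparison, gene lists and naming rule were chosen with earlier results of these data known. The rule names the 12 largest rises and 10 largest falls among called genes whose groups do not overlap, up to 4 called members with the smallest p and up to 2 abundant uncalled members per list, called genes in runs of at least 3 called genes within 10 kb gaps, and called members of classes with at least 3 calls. Genes named outside the rule are marked so, apart from uncalled gut markers and uncalled neighbours or copies of named genes. Refits without a library kept the same 12849 genes. Alternatives covered the pseudocount, filter, scaling, trend, prior, libraries used, doubtful zeros, replicate block and threshold. Figures used matplotlib 3.10.9 under Python 3.11.15.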

Additional observations from a re-analysis of the deposited data

How the results depend on the processing

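The counts of 139 higher and 23 lower genes stayed within 1.5 times under most settings: 138 and 23 with 0.1 added before the logarithm, 116 and 20 with no filter, 136 and 17 with a filter of 5 FPKM, 119 and 18 without the trend, 141 and 22 with a robust prior, 101 and 17 with only the 6 GO and control libraries, and 145 and 22 with doubtful zeros missing. Median-of-ratios scaling gave 125 and 26, with the median of all genes at −0.00192. At an adjusted p under 0.01 there were 88 and 12. Leaving out single libraries gave 92 to 144 higher and 15 to 26 lower genes. The replicate number as a block gave 117 and 20. Deviations from the group means correlated at 0.0214, −0.0233 and −0.168 between same-numbered GO and control libraries, and at −0.248 to 0.269 between the rest. Such a correlation over all genes cannot show whether some genes moved with the replicate number, so whether the numbers pair the samples stays unknown. The asp-5 difference turned from −2.79 to 0.374 with doubtful zeros missing (adjusted p = 0.0134) and to 0.374 without GO replicate 1 (adjusted p = 0.0196), where its zero stands; leaving out single libraries gave −4.373 to 0.374. None of the 162 called genes changed direction under these settings; some uncalled genes near 0, such as vit-6, ctsa-1.1 and hsp-6, did. FPKM carry no depth, so the limit that a 0 sets cannot be given.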

Other observations

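Mitochondrial genome transcripts were not called in any of the 14 tested genes (median difference 0.445), and their FPKM summed to 2705, 2397 and 1989 in GO, 1873, 1634 and 2241 in GONH2, and 1438, 2316 and 1639 in control libraries. The 33 tested small nucleolar RNA genes summed to 1164, 2132 and 796.2 FPKM in GO, 752.2, 1000 and 995.6 FPKM in GONH2, and 599.7, 655.3 and 655.5 FPKM in control libraries. Among them T25C12.12, chosen after its values were seen, was listed at 408, 589 and 0 FPKM in GO, 207, 123 and 103.7 FPKM in GONH2 and 0 in all control libraries (adjusted p = 0.434). timm-17B.2, a gene for a mitochondrial import subunit, also chosen with its values known, had 22.98, 17.5 and 17.5 FPKM in GO, 9.61, 11.5 and 13.6 FPKM in GONH2, and 8.71, 8.01 and 11.7 FPKM in control libraries (0.96 ± 0.17, adjusted p = 0.0332), and was called in 8 of 18 refits.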
